A study of Mus musculus with 15 samples.

Results

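Brain transcriptomes of mice given levodopa after MPTP were set against those of mice given MPTP alone, with 3 RNA-seq libraries in each group. The 6 libraries were chosen by their sample names from 15 in the series, and the other 9 came from untreated mice or from mice given a Bruton tyrosine kinase (BTK) inhibitor after MPTP. Levodopa mice received MPTP intraperitoneally at 20 mg/kg/day for 1 week and then levodopa at 2 mg/kg/day for 4 weeks. The protocol gives the levodopa route as oral, while the label of each levodopa library names an intraperitoneal injection. MPTP mice received the same week of MPTP, followed by 4 weeks of normal diet. MPTP was thus common to both groups, so the comparison addresses what levodopa adds after MPTP. Each group held 8 mice, and 3 libraries of each were sequenced. The labels also give a time of 6 weeks, the same for both groups. Strain, sex, age, the brain region taken, the interval between the last dose and tissue collection and the use of a decarboxylase inhibitor are not given in the labels. Whether each library came from its own mouse is not stated. The p-values below therefore describe the spread among libraries, which could be technical. In the main fit that spread was estimated within the groups of all 15 libraries.

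MPTP is a toxin that monoamine oxidase B in glia converts to MPP+. The dopamine transporter carries MPP+ into dopamine neurons, where it inhibits complex I of the mitochondrial respiratory chain, and the dopamine neurons of the midbrain are the best known casualties. Levodopa is the direct precursor of dopamine: the large neutral amino acid transporter carries it across the blood-brain barrier, aromatic amino acid decarboxylase converts it to dopamine, and methylation and oxidation break the products down. Long-term levodopa in animals with a dopamine lesion is known for changing opioid peptide and immediate early gene messages in the medium spiny neurons of the striatum.

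The levodopa libraries held between 64384017 and 66838245 counted reads, and the MPTP libraries between 66458264 and 67305598. Levels are given below as CPM, that is counts per library total after TMM scaling, which adjusts for differences in library composition, and the values of 3 libraries are always in the order 1, 2, 3. A count of 3 reads, taken as the floor, was at most 0.0483 CPM in these 6 libraries. Brain identity was plain in all 6, since the synaptic gene Snap25 had 2070, 2768 and 1346 CPM in the levodopa libraries, against 1555, 1768 and 2022 CPM in the MPTP libraries.

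The library levodopa 2 stood apart from the other 5. Gabra6, a subunit of the GABA-A receptor that granule cells of the cerebellum express, had 0.0587, 556 and 3.18 CPM in the levodopa libraries, against 0.0585, 0 and 0 CPM in the MPTP libraries. Outside these groups, only control library 2 reached such a level, with 649 CPM. The 18 cerebellar genes examined summed to 301, 8880 and 640 CPM in the levodopa libraries and to 649, 653 and 433 CPM in the MPTP libraries. Over 15740 genes of at least 1 CPM, the SD across genes of the log2 difference between levodopa 2 and each other library was 0.901 to 1.01, and 16.8% to 19.7% of genes differed more than 2-fold. Results are therefore given with all 3 levodopa libraries and without levodopa 2.

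Among the remaining 5 libraries, the closest pairs joined the treatments. Levodopa 1 and MPTP 3 differed with an SD of 0.285 and had 0.915% of genes past 2-fold, and levodopa 3 and MPTP 1 differed with an SD of 0.29 and had 1.2% past 2-fold. Levodopa 1 and levodopa 3 were farther apart, with an SD of 0.45 and 3.28% of genes past 2-fold, while the 3 pairs of MPTP libraries had SDs of 0.3 to 0.384. Both cross-treatment pairs shared a regional signature. Tph2, the enzyme that starts serotonin synthesis in raphe neurons, had 109.8, 0.902 and 8.85 CPM in the levodopa libraries, against 1.41, 1.48 and 65.8 CPM in the MPTP libraries, so it was high in levodopa 1 and MPTP 3. Pmch, the melanin-concentrating hormone precursor of the lateral hypothalamus, had 20.1, 0.242 and 269 CPM in the levodopa libraries, against 434, 220.2 and 114 CPM in the MPTP libraries, so levodopa 3 and MPTP 1 held the 2 highest levels. Which tissue each library held cannot be told apart from what the treatment did within it, and in bulk tissue fewer cells of a type cannot be told apart from less RNA per cell.

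**Figure D1:**
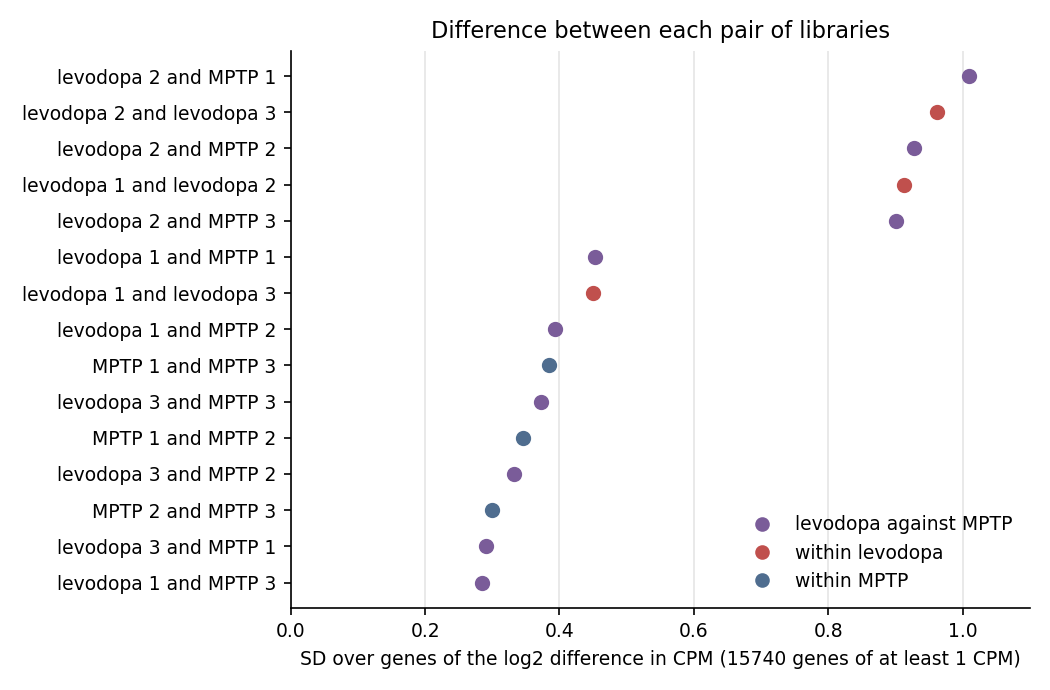
Difference between each of the 15 pairs of levodopa and MPTP libraries, as the SD over 15740 genes of the log2 difference in CPM, coloured by whether the pair joins the treatments or lies within one. All 5 pairs with levodopa 2 lie at 0.901 or above, and the 2 smallest values, 0.285 and 0.29, join a levodopa and an MPTP library.

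Across the transcriptome, no gene passed the main test between levodopa and MPTP brain. edgeR's quasi-likelihood test on the read counts called 0 of 21821 genes (0%) at a Benjamini-Hochberg adjusted p under 0.05, and the smallest adjusted p was 0.954. At an unadjusted p under 0.05 there were 645 genes (2.96%), of which 397 were higher (1.82%) and 248 lower (1.14%) in levodopa. DESeq2 called 2 of 21667 genes (0.00923%), a pseudogene and a noncoding gene described further on. All 3 levodopa libraries lay above all 3 MPTP libraries for 1076 genes (4.93%) and below them for 1015 genes (4.65%), which is the background against which the gene lists are read. The interval behind these values was wide: the 95% confidence interval of a log2 fold change reached a median of 0.45 to either side for the 15740 genes of at least 1 CPM, and for 86.2% of them it reached less than 1, that is less than a 2-fold change. None of the 618 tested genes in the 45 lists described below was called.

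Dopamine itself is made and stored by a short chain of proteins. Tyrosine hydroxylase (Th) makes levodopa, aromatic amino acid decarboxylase (Ddc) turns levodopa into dopamine, the vesicular transporter Slc18a2 loads it into vesicles, and the dopamine transporter Slc6a3 returns it from the synapse. The 250 bases before the transcription start of the 2 enzymes that act in turn on this route are shown here because their messages are the nearest to levodopa itself. They are the minus-strand sequences of chr7:142899996-142900245 for Th and chr11:11898145-11898394 for Ddc from the RefSeq promoter table of GRCm38.p6, in which Ddc has 2 starts and the first was taken.
Th: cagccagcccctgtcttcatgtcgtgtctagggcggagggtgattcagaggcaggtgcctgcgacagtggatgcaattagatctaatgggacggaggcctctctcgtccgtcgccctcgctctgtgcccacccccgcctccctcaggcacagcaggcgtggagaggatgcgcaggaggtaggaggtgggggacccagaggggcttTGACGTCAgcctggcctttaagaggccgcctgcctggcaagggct
Ddc: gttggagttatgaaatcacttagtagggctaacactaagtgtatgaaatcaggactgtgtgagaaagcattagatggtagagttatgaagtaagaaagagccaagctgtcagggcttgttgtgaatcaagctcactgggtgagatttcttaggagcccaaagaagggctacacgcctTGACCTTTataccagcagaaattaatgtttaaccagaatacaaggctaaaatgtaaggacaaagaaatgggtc
Capitals mark a match to a motif searched on both strands. In Th it is the cAMP response element TGACGTCA, which reads the same on both strands and lies 45 to 38 bases before the start. In Ddc it is the NGFI-B response element AAAGGTCA, bound by the nuclear receptors of the Nr4a family, on the opposite strand 73 to 66 bases before the start. The first motif occurs in 1.55% and the second in 1.34% of 32851 mouse promoter windows of 250 bases. Neither motif was found in the same window of Slc18a2 or Slc6a3.

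Levodopa brain did not hold a detectably different amount of these messages. Th had 51.5, 3.28 and 44.4 CPM in the levodopa libraries, against 52.6, 67.7 and 36.1 CPM in the MPTP libraries. Ddc had 85.0, 6.65 and 54.3 CPM in the levodopa libraries, against 59.5, 70.4 and 58.7 CPM in the MPTP libraries. In both genes levodopa 2 was far below the other 5 libraries, whose values overlapped between the groups. The log2 fold change of Th was -0.66 (SE 0.93, 95% interval -2.68 to 1.37, n = 3 libraries each, edgeR) and -0.13 without levodopa 2. For Ddc the log2 fold change was -0.37 (SE 0.87) and turned to 0.14 (SE 0.78) without levodopa 2.

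The transporters showed the same picture. Slc18a2 had 95.7, 2.79 and 55.2 CPM in the levodopa libraries, against 51.6, 74.4 and 60.2 CPM in the MPTP libraries. Slc6a3 had 73.8, 0.129 and 75.5 CPM in the levodopa libraries, against 78.4, 121 and 54.6 CPM in the MPTP libraries. Levodopa 2 was again the lowest, with Slc6a3 close to the floor, and the other levodopa libraries lay within or above the MPTP range. Gch1, which makes the tetrahydrobiopterin cofactor that tyrosine hydroxylase needs, had 10.8, 1.77 and 4.26 CPM in the levodopa libraries, against 4.10, 5.01 and 5.65 CPM in the MPTP libraries, with levodopa 1 the highest of the 6. Of the 9 genes of dopamine synthesis and storage, 0 passed the test and 0 separated the groups. Their median log2 fold change was -0.17, beside 0.003 over all tested genes, and without levodopa 2 it was 0.14.

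**Figure D2:**
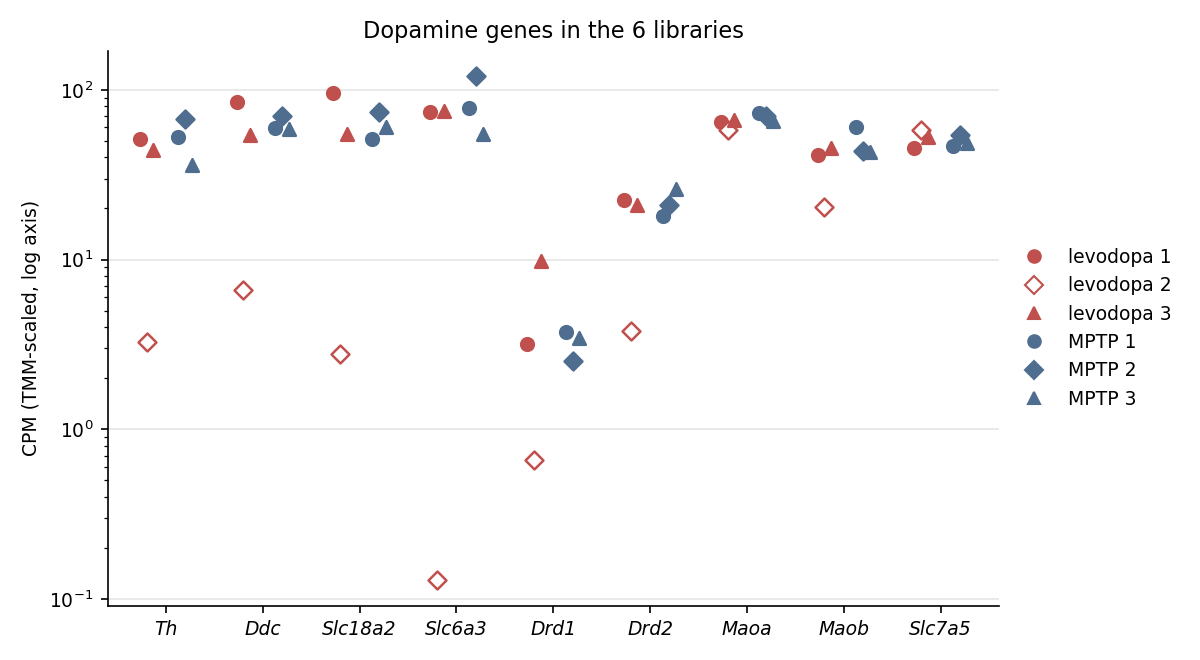
Level of 9 dopamine-related genes in each levodopa library (left of each pair) and each MPTP library (right), as TMM-scaled CPM on a log axis. Levodopa 2, drawn open, is the lowest library for Th, Ddc, Slc18a2, Slc6a3, Drd1, Drd2, Maoa and Maob, while among the other 5 libraries the groups overlap for all 9 genes.

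Genes that give midbrain dopamine neurons their identity overlapped between the groups, with 1 exception. Nr4a2, a nuclear receptor needed to form and keep these neurons, had 10.7, 12.3 and 24.9 CPM in the levodopa libraries, against 18.3, 30.9 and 8.96 CPM in the MPTP libraries. Ret, the receptor for the trophic factor GDNF, had 73.1, 50.1 and 75.1 CPM in the levodopa libraries, against 81.4, 102 and 66.3 CPM in the MPTP libraries. Aldh1a1, an aldehyde dehydrogenase of ventral-tier dopamine neurons that astrocytes also hold, had 225, 252 and 146 CPM in the levodopa libraries, against 143, 256 and 229 CPM in the MPTP libraries. The groups overlapped in all 3 genes, and MPTP 2 was the highest library for each. Pitx3, a homeobox factor of these neurons, was near or below 1 CPM throughout, with 0.587, 0 and 0.421 CPM in the levodopa libraries, against 0.615, 0.864 and 0.312 CPM in the MPTP libraries. Over the 21 identity genes 0 passed the test, 18 had a log2 fold change below 0, and the median was -0.36, against -0.10 without levodopa 2. The 1 gene of the list that separated the groups was Slc17a6, a vesicular glutamate transporter that is abundant in the thalamus and is taken up with the regional genes.

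Genes of other monoamine neurons varied widely from library to library. Slc6a4, the serotonin transporter, had 60.7, 0.0483 and 5.54 CPM in the levodopa libraries, against 0.790, 0.483 and 37.5 CPM in the MPTP libraries, which follows Tph2. Slc6a2, the noradrenaline transporter, had 2.01, 4.77 and 0.189 CPM in the levodopa libraries, against 0, 0 and 0.149 CPM in the MPTP libraries, and Dbh, which makes noradrenaline from dopamine, had 1.79, 3.86 and 0.116 CPM in the levodopa libraries, against 0, 0.0879 and 0.164 CPM in the MPTP libraries. Slc6a2 was higher in every levodopa library than in any MPTP library, but 2 of the MPTP libraries held no read and levodopa 3 was close to the MPTP level. Its unadjusted p was 0.0172, and that of Dbh, whose groups overlapped, was 0.0196.

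The route that levodopa takes into and through the brain was examined next, in 18 genes of transport and breakdown. Slc7a5, the light chain of the large neutral amino acid transporter, had 45.3, 58.2 and 52.7 CPM in the levodopa libraries, against 46.5, 53.8 and 48.4 CPM in the MPTP libraries. Its heavy chain Slc3a2 had 91.8, 109 and 98.8 CPM in the levodopa libraries, against 102, 103 and 94.0 CPM in the MPTP libraries. Both chains overlapped between the groups, and the intervals were narrow enough to bound any change: -0.39 to 0.54 for Slc7a5 and -0.30 to 0.30 for Slc3a2 on the log2 scale. Thus a rise or fall of 2-fold lay outside the interval of each.

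Among the enzymes, monoamine oxidase A (Maoa) had 64.7, 57.8 and 66.1 CPM in the levodopa libraries, against 73.4, 69.7 and 65.8 CPM in the MPTP libraries. Monoamine oxidase B (Maob), which also activates MPTP, had 41.5, 20.5 and 45.2 CPM in the levodopa libraries, against 60.4, 43.5 and 43.2 CPM in the MPTP libraries. The groups overlapped for both, and levodopa 2 was the lowest library for both. Log2 fold changes were -0.15 (-0.39 to 0.09) for Maoa and -0.46 (-1.23 to 0.32) for Maob.

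Sult1a1, a sulfotransferase that conjugates phenols and catechols, was the 1 enzyme of the list with an unadjusted p under 0.05 at more than 5 CPM. It had 11.5, 9.37 and 14.8 CPM in the levodopa libraries, against 7.30, 9.46 and 8.70 CPM in the MPTP libraries. Levodopa 1 and 3 lay above every MPTP library and levodopa 2 fell just inside the MPTP range. The log2 fold change was 0.49 (SE 0.19, unadjusted p = 0.0251, edgeR) and 0.63 (unadjusted p = 0.00621) without levodopa 2, and in neither fit did it pass the adjustment. Across the 18 genes 9 log2 fold changes were above 0 and 9 below, with a median of 0.00.

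Methylation of levodopa consumes S-adenosylmethionine, and the decarboxylase needs vitamin B6, so the genes of both supplies were listed. Mat2a, which makes S-adenosylmethionine, had 234, 247 and 264 CPM in the levodopa libraries, against 251, 272 and 255 CPM in the MPTP libraries. Ahcy, which clears the product of methylation, had 34.0, 27.1 and 36.7 CPM in the levodopa libraries, against 35.7, 35.1 and 33.3 CPM in the MPTP libraries. In both genes the groups overlapped, and for Mat2a the interval ran from -0.25 to 0.12, well inside a 2-fold change. Of the 13 methyl-supply genes 1 separated the groups, Bhmt, with 2, 2 and 2 reads in the levodopa libraries and none in the MPTP libraries, under the floor of 3 reads. Pdxk, the kinase that makes active vitamin B6, had 279.7, 169 and 259.8 CPM in the levodopa libraries, against 239, 187 and 237 CPM in the MPTP libraries, and levodopa 1 and 3 lay above all MPTP libraries. None of these 13 genes and of the 5 vitamin B6 genes passed the test.

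**Figure D3:**
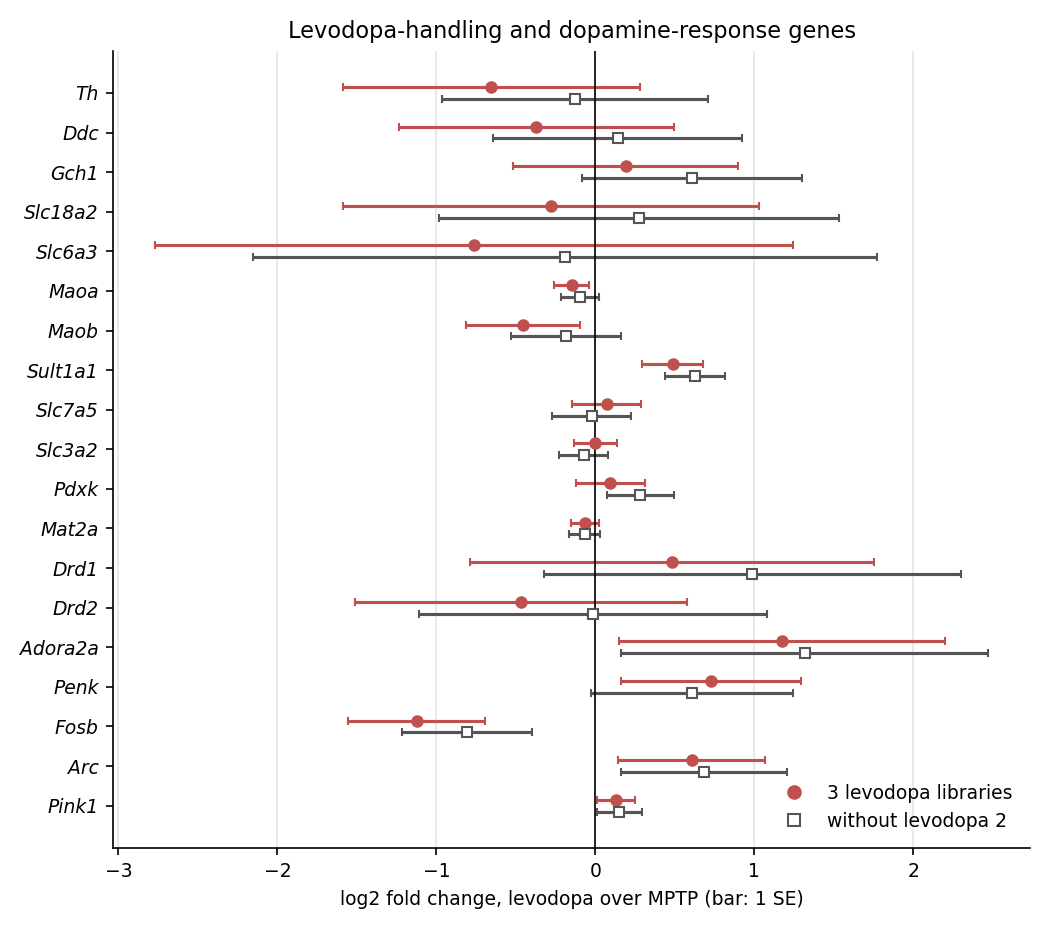
Log2 fold change of levodopa over MPTP for 19 genes of dopamine supply, breakdown and response, with bars of 1 SE from edgeR, for all 3 levodopa libraries (filled) and without levodopa 2 (open). Slc7a5, Slc3a2 and Mat2a lie near 0 with short bars, while Slc6a3, Slc18a2 and Drd1 have the longest with all 3 libraries, at an SE of 2.01, 1.31 and 1.27.

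Genes of the striatum, where levodopa responses are usually measured, were toward the low end of the series. The 19 genes of medium spiny neurons summed to 900, 827 and 1040 CPM in the levodopa libraries and to 852, 833 and 955 CPM in the MPTP libraries, and the other 9 libraries reached 4950 CPM. The dopamine receptor Drd1 of the direct pathway had 3.20, 0.660 and 9.75 CPM in the levodopa libraries, against 3.76, 2.53 and 3.45 CPM in the MPTP libraries. Drd2, which is also an autoreceptor on dopamine neurons, had 22.4, 3.82 and 20.9 CPM in the levodopa libraries, against 18.2, 21.0 and 26.1 CPM in the MPTP libraries. Both overlapped between the groups, with levodopa 2 the lowest library. In the other 9 libraries the 5 dopamine receptor genes summed to between 3.15 and 194 CPM, and the 6 levodopa and MPTP libraries to between 5.94 and 37.8 CPM. Neither receptor passed the test, and the interval for Drd1, -2.27 to 3.24, spans more than a 4-fold change in each direction.

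Among 19 genes of striatal medium spiny neurons, the opioid precursor Penk and the adenosine receptor Adora2a, both of the indirect pathway, were higher in every levodopa library. Penk had 77.1, 99.1 and 81.2 CPM in the levodopa libraries, against 66.8, 32.4 and 56.2 CPM in the MPTP libraries. Adora2a had 1.76, 2.61 and 5.61 CPM in the levodopa libraries, against 1.43, 1.57 and 1.41 CPM in the MPTP libraries. For Penk the lowest levodopa library lay just above the highest MPTP library, and for Adora2a levodopa 3 stood well above the rest. The log2 fold change of Penk was 0.73 (SE 0.56, unadjusted p = 0.22) and that of Adora2a 1.18 (SE 1.03, unadjusted p = 0.273). Neither passed the test, and these were 2 of 19 genes, where 4.93% of all genes lay above MPTP. Of the direct-pathway peptides, Pdyn, the dynorphin precursor, had 4.83, 1.45 and 33.8 CPM in the levodopa libraries, against 31.1, 14.4 and 8.03 CPM in the MPTP libraries, and Tac1, the substance P precursor, had 38.4, 4.09 and 37.2 CPM in the levodopa libraries, against 36.7, 26.8 and 36.7 CPM in the MPTP libraries. Both overlapped, but without levodopa 2 both remaining levodopa libraries lay just above MPTP for Tac1, at a log2 fold change of 0.17 (unadjusted p = 0.873, edgeR). Ppp1r1b, the dopamine-regulated phosphoprotein DARPP-32, had 27.2, 141 and 46.2 CPM in the levodopa libraries, against 16.3, 26.5 and 29.8 CPM in the MPTP libraries, so that levodopa 2 was the highest library for this gene while it was the lowest for Pdyn and Tac1.

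Of 24 immediate early genes, which neuronal activity switches on within minutes, 19 had a log2 fold change above 0 and 5 below, and none passed the test. At an unadjusted edgeR p under 0.05, 2 of the 24 were higher and 1, Fosb, was lower. Of all genes tested 1.82% were higher and 1.14% lower at that threshold. Arc, which acts at synapses, had 30.7, 26.8 and 33.7 CPM in the levodopa libraries, against 12.9, 22.4 and 24.6 CPM in the MPTP libraries, and all 3 levodopa libraries lay above all 3 MPTP libraries. Fosb, whose protein variants accumulate with repeated dopamine stimulation, had 3.93, 2.19 and 7.32 CPM in the levodopa libraries, against 11.6, 12.7 and 5.04 CPM in the MPTP libraries. Levodopa 1 and 2 lay below every MPTP library, and levodopa 3 lay above MPTP 3. The log2 fold change was 0.61 (SE 0.46, unadjusted p = 0.213) for Arc and -1.12 (SE 0.43, unadjusted p = 0.0216) for Fosb. Fos and Egr1, the usual markers of recent firing, overlapped: Fos had 24.8, 26.4 and 29.7 CPM in the levodopa libraries, against 23.2, 28.4 and 22.5 CPM in the MPTP libraries, and Egr1 had 58.6, 56.8 and 59.0 CPM in the levodopa libraries, against 46.0, 63.1 and 70.2 CPM in the MPTP libraries. Of the 24 genes 1 lay above without overlap and 1 below (Dusp6, a MAP kinase phosphatase), and the median log2 fold change was 0.24. Without levodopa 2, 4 lay above and 1 below, where 8.97% and 8.25% of all genes did, and the median was 0.15.

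MAP kinase and opioid receptor genes, 15 in all, likewise held no called gene. Mapk3, the kinase ERK1 that levodopa activates in the lesioned striatum of rodents, had 112, 82.3 and 115 CPM in the levodopa libraries, against 123, 129.8 and 119.9 CPM in the MPTP libraries. All levodopa libraries were lower, by a log2 fold change of -0.27 (SE 0.14, unadjusted p = 0.0744). The mu opioid receptor Oprm1 had 2.46, 0.580 and 3.89 CPM in the levodopa libraries, against 3.42, 3.43 and 3.67 CPM in the MPTP libraries, and the kappa receptor Oprk1 had 17.2, 1.35 and 27.7 CPM in the levodopa libraries, against 28.2, 19.3 and 15.3 CPM in the MPTP libraries. Both receptors were lowest in levodopa 2 and overlapped elsewhere.

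Genes tied to inherited Parkinson disease did not differ detectably, and of 15 listed 0 passed the test. Lrrk2, a kinase, had 18.5, 49.7 and 23.8 CPM in the levodopa libraries, against 17.9, 20.4 and 24.6 CPM in the MPTP libraries. Levodopa 2 was the highest library for Lrrk2, and the groups overlapped. Pink1, a kinase of mitochondrial quality control, had 453, 377 and 346 CPM in the levodopa libraries, against 348, 349.7 and 377 CPM in the MPTP libraries and an interval of -0.13 to 0.39. Park7, an oxidation-sensing chaperone, had 77.6, 75.5 and 69.1 CPM in the levodopa libraries, against 78.9, 73.2 and 77.8 CPM in the MPTP libraries and an interval of -0.33 to 0.24. For Pink1 and Park7 a 2-fold change lay outside the interval. Across the 15 genes 4 log2 fold changes were above 0 and 11 below, with a median of -0.14.

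Microglial genes were lower in levodopa by their fitted values, with levodopa 2 the farthest, and none passed the test. All 20 genes of homeostatic microglia had a log2 fold change below 0, with a median of -0.37, and 4 of 20 lay below the MPTP libraries without overlap, against 4.65% of all genes. P2ry12, the ADP receptor that guides microglial processes, had 27.9, 12.2 and 27.5 CPM in the levodopa libraries, against 28.9, 34.9 and 28.5 CPM in the MPTP libraries. Cathepsin S (Ctss) had 52.4, 25.8 and 51.1 CPM in the levodopa libraries, against 52.5, 67.5 and 56.5 CPM in the MPTP libraries, and the nucleotide receptor P2ry13 had 9.08, 4.30 and 7.69 CPM in the levodopa libraries, against 9.28, 10.8 and 9.51 CPM in the MPTP libraries. Levodopa 2 was the lowest in these 3 genes, while levodopa 1 and 3 lay close under the lowest MPTP library. Without levodopa 2 no further gene of the list lay below MPTP, while the share of all genes that did was 8.25%, and the median log2 fold change of the list was -0.11. The unadjusted p of P2ry13, the smallest among the 4, was 0.186. The receptor Cx3cr1 had 42.2, 17.1 and 36.0 CPM in the levodopa libraries, against 38.4, 47.7 and 36.9 CPM in the MPTP libraries and overlapped.

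Genes of activated microglia and of inflammation did not pass the test either. Of 18 genes of activated microglia 16 were abundant enough to test and 0 separated the groups, with a median log2 fold change of -0.12. The 16 tested genes summed to 2350, 1830 and 2230 CPM in the levodopa libraries, against 2250, 2220 and 2260 CPM in the MPTP libraries. Of 17 inflammation genes 13 were tested, with a median of -0.32, against -0.03 without levodopa 2, and Tnf, Il6 and Ccl2 were among those too low. The 1 inflammation gene that lay below MPTP was Nos2, the inducible nitric oxide synthase, with 0.557, 0.467 and 0.567 CPM in the levodopa libraries, against 0.644, 0.864 and 0.654 CPM in the MPTP libraries (log2 fold change -0.44, unadjusted p = 0.365). Il1b had no read in 5 of the 6 libraries and 0, 0.117 and 0 CPM in the MPTP libraries, where MPTP 2 alone held reads. The interferon-stimulated genes, 20 in number, had a median of -0.01 and 1 member below MPTP, Ifit2, with 17.0, 6.73 and 16.4 CPM in the levodopa libraries, against 17.5, 20.0 and 20.0 CPM in the MPTP libraries. Levodopa 2 was far lower than the rest for Ifit2.

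Btk, the kinase that the other treatments of the study target, had 0.587, 0.322 and 0.814 CPM in the levodopa libraries, against 1.13, 1.33 and 0.758 CPM in the MPTP libraries. Levodopa 2 was the lowest and levodopa 3 alone exceeded an MPTP library, for a log2 fold change of -0.90 (SE 0.43, unadjusted p = 0.0554), or -0.62 (unadjusted p = 0.178) without levodopa 2. Among 12 genes of BTK signalling Pik3cd, a lipid kinase subunit of leukocytes, lay below MPTP in every levodopa library with 20.8, 16.7 and 25.2 CPM in the levodopa libraries, against 25.3, 32.2 and 25.7 CPM in the MPTP libraries. No gene of the list was called.

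The main markers of astrocytes and oligodendrocytes overlapped between the groups. Gfap, the astrocyte filament protein that rises in reactive glia, had 229, 144 and 166 CPM in the levodopa libraries, against 79.7, 201 and 231 CPM in the MPTP libraries. Aqp4, the water channel of astrocyte endfeet, had 291, 371 and 199 CPM in the levodopa libraries, against 168, 323 and 355 CPM in the MPTP libraries. MPTP 1 was the lowest library for both, and the remaining libraries were mixed. Mbp, a myelin protein, had 6393, 4261 and 3845 CPM in the levodopa libraries, against 4319, 6657 and 5716 CPM in the MPTP libraries, with levodopa 1 and MPTP 2 at the top. All 14 genes of mature oligodendrocytes had log2 fold changes below 0, at a median of -0.24, yet 0 of 14 separated the groups. Vim and Sox9 were the 2 of 15 astrocyte genes higher in every levodopa library, where 4.93% of all genes were. Sox9, a transcription factor of astrocytes, had 29.7, 34.8 and 29.1 CPM in the levodopa libraries, against 24.7, 27.8 and 25.8 CPM in the MPTP libraries. Vim, an intermediate filament, had 37.1, 141 and 38.2 CPM in the levodopa libraries, against 25.4, 35.9 and 26.2 CPM in the MPTP libraries.

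Of the contractile genes of the vessel wall, 1 lay above MPTP in every levodopa library, and none passed the adjustment. Tagln, a contractile protein of smooth muscle (chr9:45929628-45936058, GRCm38.p6), had 7.54, 3.90 and 6.25 CPM in the levodopa libraries, against 1.71, 3.05 and 3.27 CPM in the MPTP libraries. Every levodopa library was above the MPTP libraries and also above the 9 other libraries of the series, whose highest value was 3.37 CPM. Its log2 fold change was 1.14 (SE 0.38, unadjusted p = 0.00996) and 1.36 (unadjusted p = 0.00405) without levodopa 2. Acta2, smooth muscle actin, had 20.5, 11.8 and 13.1 CPM in the levodopa libraries, against 5.84, 12.1 and 7.71 CPM in the MPTP libraries, and Myl9, a myosin light chain, had 19.9, 14.2 and 16.4 CPM in the levodopa libraries, against 9.92, 15.4 and 11.8 CPM in the MPTP libraries. Both overlapped only through levodopa 2, and their unadjusted p-values were 0.022 and 0.0289. Markers of pericytes proper overlapped: Pdgfrb had 31.3, 24.4 and 23.0 CPM in the levodopa libraries, against 23.2, 29.0 and 27.4 CPM in the MPTP libraries, and Rgs5 had 128, 124 and 115 CPM in the levodopa libraries, against 77.9, 156 and 119 CPM in the MPTP libraries. Across the 12 genes of pericytes and smooth muscle 0 passed the adjustment, 3 had an unadjusted p under 0.05, all higher, and the median log2 fold change was 0.08.

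Endothelial genes were above 0 in 16 of 18 cases, but 0 of 18 separated the groups. The list summed to 748, 655 and 595 CPM in the levodopa libraries and to 455, 722 and 620 CPM in the MPTP libraries, so MPTP 1 was the lowest. Flt1, a VEGF receptor, had 99.1, 84.2 and 69.2 CPM in the levodopa libraries, against 53.3, 89.4 and 75.7 CPM in the MPTP libraries. Slc2a1, the glucose transporter of the blood-brain barrier, had 103, 117 and 116 CPM in the levodopa libraries, against 85.0, 114 and 94.9 CPM in the MPTP libraries. Cldn5, the tight junction protein of that barrier, had 49.8, 22.0 and 18.6 CPM in the levodopa libraries, against 16.7, 21.0 and 20.0 CPM in the MPTP libraries, where levodopa 1 stood alone. Their log2 fold changes were 0.21, 0.19 and 0.65, and the largest of the 3 had an unadjusted p of 0.113.

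Fibroblasts of the leptomeninges, the membranes on the brain surface, gave the most reads to levodopa 1 and the fewest to MPTP 1, going by their marker genes. The 17 genes of the list summed to 1370, 520 and 953 CPM in the levodopa libraries and to 341, 886 and 947 CPM in the MPTP libraries. Col1a1, a fibrillar collagen, had 13.2, 7.23 and 8.93 CPM in the levodopa libraries, against 5.40, 8.42 and 8.29 CPM in the MPTP libraries. Slc6a13, a GABA transporter of meninges, had 16.0, 4.49 and 7.39 CPM in the levodopa libraries, against 2.44, 5.23 and 6.87 CPM in the MPTP libraries. Of the 17 genes 16 had log2 fold changes above 0, with a median of 0.41, and 0 separated the groups. Without levodopa 2 the median was 0.58 and 8 genes lay above the MPTP libraries, against a background share of 8.97% in that comparison. None of the 17 was called in either fit. The part of meninges and vessels in each sample in the smooth muscle values above was not tested.

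**Figure D4:**
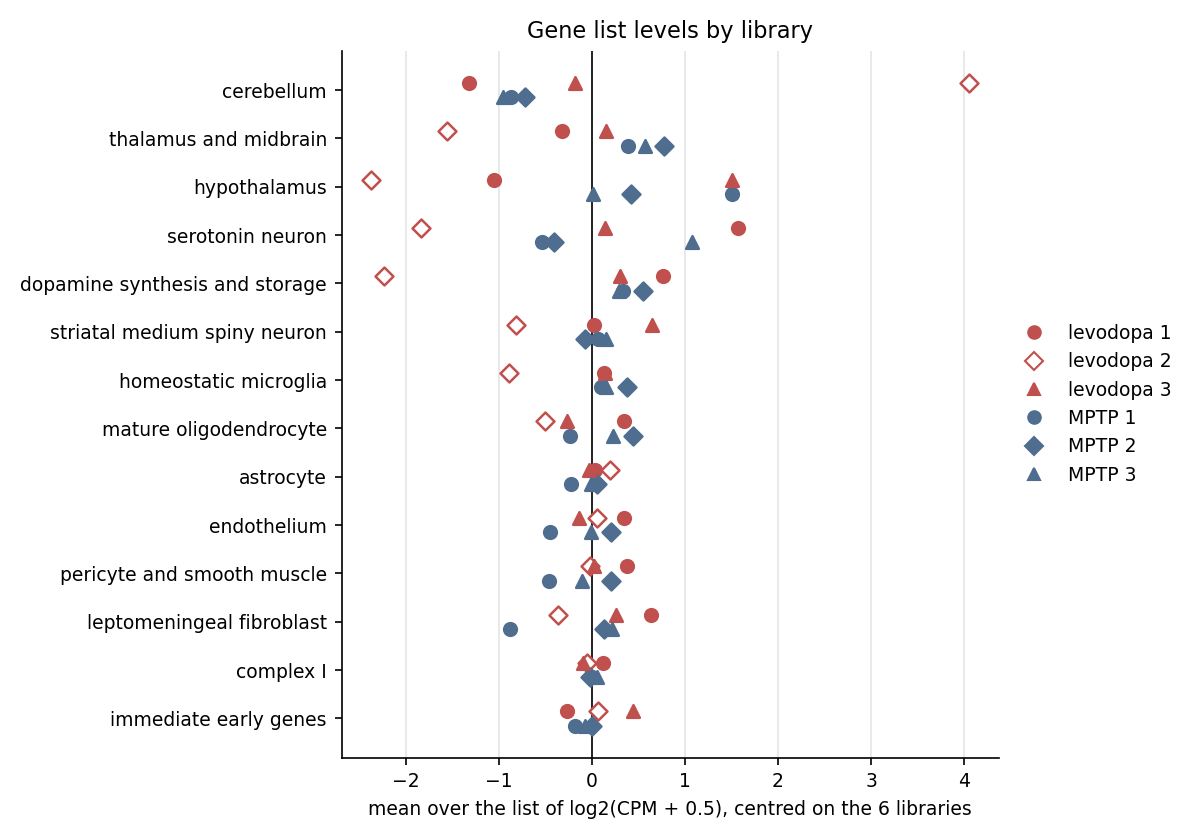
Level of 14 gene lists in each library, as the mean over the list of log2(CPM + 0.5) centred on the 6 libraries, with levodopa above MPTP in each row. Levodopa 2, drawn open, lies at 4.05 for the cerebellar list and at -2.24 for dopamine synthesis, and for thalamus and midbrain all 3 levodopa libraries lie left of the 3 MPTP libraries.

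Some regional genes of the thalamus and midbrain lay lower in levodopa without overlap. Of 13 genes of thalamus and midbrain 6 were lower in every levodopa library than in any MPTP library, where 4.65% of all genes were. Without levodopa 2 no further gene of the list joined the 6, while the share of all genes that lay below was 8.25%. The median log2 fold change of the list was -1.05, and -0.71 without levodopa 2. The 13 genes summed to 815, 541 and 1080 CPM in the levodopa libraries and to 1350, 1650 and 1370 CPM in the MPTP libraries. In the other 9 libraries the sum ran from 311 to 1460 CPM. All levodopa libraries thus lay inside that range, while MPTP 2 lay above it and MPTP 1 and 3 near its top. Tcf7l2, a transcription factor of thalamic neurons, had 116, 39.5 and 107 CPM in the levodopa libraries, against 154, 175 and 215 CPM in the MPTP libraries. Ntng1, a cell adhesion protein of thalamic axons, had 60.1, 30.6 and 94.6 CPM in the levodopa libraries, against 147, 169 and 114 CPM in the MPTP libraries. Slc17a6 had 257, 60.7 and 244 CPM in the levodopa libraries, against 333, 309.6 and 365 CPM in the MPTP libraries. All levodopa libraries were lower in each, with levodopa 2 the lowest.

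Plekhg1, Rgs16 and Shox2 completed the set. Rgs16, a regulator of G protein signalling, had 11.6, 16.7 and 36.8 CPM in the levodopa libraries, against 46.1, 62.8 and 42.7 CPM in the MPTP libraries. Plekhg1, an exchange factor for small GTPases, had 39.0, 29.7 and 95.1 CPM in the levodopa libraries, against 98.1, 214 and 104 CPM in the MPTP libraries. Levodopa 3 came closest to the MPTP range in both. Shox2, a homeobox factor, had 40.2, 10.6 and 33.4 CPM in the levodopa libraries, against 53.4, 63.3 and 70.8 CPM in the MPTP libraries. The unadjusted p-values were 0.0351 for Ntng1, 0.0385 for Rgs16 and 0.0478 for Plekhg1, and 0.223, 0.296 and 0.358 for Tcf7l2, Slc17a6 and Shox2, so none passed the adjustment. Prkcd, another thalamic gene, overlapped, with 13.7, 69.4 and 158 CPM in the levodopa libraries, against 124, 356 and 185 CPM in the MPTP libraries, and the 16 hypothalamic genes summed to 188, 29.3 and 637 CPM in the levodopa libraries against 868, 397 and 262 CPM in the MPTP libraries. How much thalamus, hypothalamus or midbrain each sample held was not tested.

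The cerebellar list is the converse case. All 18 genes had a log2 fold change above 0 and the median was 1.83, while without levodopa 2 the median was -0.02. Cbln3, a secreted synapse organiser of granule cells, had 1.13, 1450 and 5.84 CPM in the levodopa libraries, against 0.644, 1.04 and 0.728 CPM in the MPTP libraries, and Fat2, a cadherin of the same cells, had 0.616, 955 and 2.47 CPM in the levodopa libraries, against 0, 0.161 and 0 CPM in the MPTP libraries. Both rank among the 12 genes with the smallest unadjusted p among those higher in levodopa, with 0.0101 and 0.00775, although levodopa 2 alone held more than 6 CPM of either. Of the 61 named genes of at least 1 CPM that lay above MPTP without overlap and past 2-fold, levodopa 2 was the highest library in 54, and 18 were also past 2-fold without it. In the opposite direction 25 genes lay below MPTP without overlap and past 2-fold.

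Mitochondrial genes were examined because complex I is the site at which MPP+ acts. Ndufa12, an accessory subunit of complex I (chr10:94199035-94221440, GRCm38.p6), had the smallest unadjusted p of all 21821 genes. It had 55.0, 45.4 and 50.4 CPM in the levodopa libraries, against 71.7, 76.3 and 76.2 CPM in the MPTP libraries. Levodopa lay below MPTP without overlap and below the 9 other libraries as well, which began at 66.4 CPM. In reads the levodopa libraries held 3750, 2819 and 3467 and the remaining 12 libraries 3938 to 5974. The log2 fold change was -0.57 (SE 0.13, 95% interval -0.85 to -0.29, unadjusted p = 0.000715, edgeR), with an adjusted p of 0.954, and it was -0.51 (unadjusted p = 0.00347) without levodopa 2. It belongs to no list above and was picked by its p-value, so the value is a description of these 6 libraries.

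Over the complex I list, which does not hold Ndufa12, the fold changes lay on both sides of 0. Of its 28 subunits 14 had log2 fold changes above 0 and 14 below, the median was 0.00, and 1 of the 28 separated the groups. That gene was Ndufv2, which carries an iron-sulfur cluster of the electron entry module, with 107, 93.4 and 100.3 CPM in the levodopa libraries, against 118, 119 and 129 CPM in the MPTP libraries (log2 fold change -0.29, SE 0.12, unadjusted p = 0.0375). Its neighbour in the module, Ndufv1, had 147, 144 and 125 CPM in the levodopa libraries, against 119, 116 and 128 CPM in the MPTP libraries, and the core subunit Ndufs1 had 155, 168 and 142 CPM in the levodopa libraries, against 151, 159 and 168 CPM in the MPTP libraries. Neither separated the groups, and Ndufv1 had a log2 fold change of 0.19. Of the 13 messages of the mitochondrial genome 5 lay below MPTP, where 4.65% of all genes did, at a median log2 fold change of -0.12. The smallest unadjusted edgeR p among the 13 was 0.11. COX1, the catalytic subunit of cytochrome oxidase, had 21490, 22420 and 22280 CPM in the levodopa libraries, against 23140, 28870 and 23710 CPM in the MPTP libraries, where MPTP 2 stood highest. ATP6, a subunit of ATP synthase, had 7067, 7194 and 5992 CPM in the levodopa libraries, against 5349, 6224 and 5553 CPM in the MPTP libraries and a log2 fold change of 0.24, with the groups overlapping.

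No gene of the stress response lists was called. Sdf2l1, Creld2 and Dnajc3, all of the endoplasmic reticulum, were the 3 of 18 unfolded protein response genes above MPTP in every levodopa library. Of all genes tested 4.93% lay above MPTP in this way. Sdf2l1 had 8.17, 8.07 and 7.15 CPM in the levodopa libraries, against 6.78, 4.38 and 5.02 CPM in the MPTP libraries, Creld2 had 14.9, 15.3 and 13.8 CPM in the levodopa libraries, against 12.7, 10.7 and 12.2 CPM in the MPTP libraries, and Dnajc3, an inhibitor of the kinase PERK, had 84.7, 90.3 and 87.6 CPM in the levodopa libraries, against 75.1, 83.3 and 78.6 CPM in the MPTP libraries. The separations were small, with log2 fold changes of 0.53, 0.30 and 0.15 and unadjusted p-values of 0.0648, 0.0951 and 0.249. Hspa5, the main chaperone of the compartment, overlapped, with 318, 255 and 308 CPM in the levodopa libraries, against 313, 233 and 234 CPM in the MPTP libraries, and Herpud1 lay below MPTP with 58.3, 61.3 and 58.1 CPM in the levodopa libraries, against 61.4, 63.3 and 63.4 CPM in the MPTP libraries. Among 18 genes of the antioxidant response the 1 that separated was Gclc, which limits glutathione synthesis, at 55.7, 65.1 and 62.3 CPM in the levodopa libraries, against 68.5, 67.5 and 70.9 CPM in the MPTP libraries, a log2 fold change of -0.18 (unadjusted p = 0.0647). Hmox1, haem oxygenase, had 3.59, 3.80 and 3.73 CPM in the levodopa libraries, against 3.31, 4.44 and 4.31 CPM in the MPTP libraries and overlapped.

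Circadian and glucocorticoid-responsive genes can follow the hour or stress of collection. The clock gene Per2 had 29.6, 63.4 and 42.2 CPM in the levodopa libraries, against 31.0, 28.2 and 33.3 CPM in the MPTP libraries and Nr1d1 had 65.6, 132 and 61.8 CPM in the levodopa libraries, against 74.1, 94.3 and 92.1 CPM in the MPTP libraries, both with levodopa 2 on top and the groups overlapping. Fkbp5, which glucocorticoids induce, had 17.7, 10.8 and 39.8 CPM in the levodopa libraries, against 22.2, 23.2 and 20.8 CPM in the MPTP libraries. Cdkn1a, the cell cycle inhibitor p21 that stress hormones and DNA damage induce, was the gene of the 15 in the glucocorticoid list that separated. It had 7.48, 13.5 and 10.7 CPM in the levodopa libraries, against 6.19, 6.30 and 5.37 CPM in the MPTP libraries, for a log2 fold change of 0.83 (SE 0.25, unadjusted p = 0.00532) and 0.60 (unadjusted p = 0.0329) without levodopa 2. Control library 2, with 10.2 CPM, and the 3 high-dose inhibitor libraries, with 7.83 to 8.47 CPM, lay inside the levodopa range, and the low-dose libraries held 11.1 to 16.2 CPM.

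The remaining genes with the smallest unadjusted p, among named genes of at least 1 CPM whose groups did not overlap, showed mostly small shifts. On the higher side, Clp1, a kinase in tRNA and mRNA processing, had 5.16, 7.29 and 6.71 CPM in the levodopa libraries, against 3.69, 4.50 and 4.06 CPM in the MPTP libraries. Tpgs1, a subunit of the tubulin polyglutamylase, had 24.8, 23.4 and 23.8 CPM in the levodopa libraries, against 19.8, 14.9 and 19.0 CPM in the MPTP libraries. Pex6, an ATPase of peroxisome import, had 51.8, 55.3 and 51.0 CPM in the levodopa libraries, against 43.9, 38.0 and 41.4 CPM in the MPTP libraries. Their log2 fold changes were 0.65, 0.42 and 0.36 with unadjusted edgeR p-values of 0.00283, 0.00381 and 0.00475. That the groups do not overlap follows from the way these genes were picked.

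Also above MPTP were Cbx6, a Polycomb chromobox protein, with 315, 370.3 and 308 CPM in the levodopa libraries, against 251, 251 and 278 CPM in the MPTP libraries, and Acads, the mitochondrial short-chain acyl-CoA dehydrogenase, with 9.08, 8.81 and 8.25 CPM in the levodopa libraries, against 6.89, 6.14 and 6.27 CPM in the MPTP libraries. Acads was nearly level within each group and differed by 0.44 on the log2 scale, also after levodopa 2 was left out (0.42). N4bp3 had 11.2, 15.7 and 9.50 CPM in the levodopa libraries, against 6.26, 7.04 and 7.76 CPM in the MPTP libraries, and Stra6, the receptor through which cells take up retinol, had 1.38, 1.72 and 3.05 CPM in the levodopa libraries, against 0.571, 1.17 and 1.12 CPM in the MPTP libraries. In N4bp3 levodopa 2 was the highest, and control library 2 with 15.1 CPM lay near it.

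On the lower side, Psmb2, a subunit of the proteasome core, had 36.0, 35.0 and 41.4 CPM in the levodopa libraries, against 45.0, 48.6 and 49.1 CPM in the MPTP libraries. Like Ndufa12 it lay below all 12 other libraries, which began at 44.1 CPM. Kpna2, an importin that carries proteins into the nucleus, had 17.7, 17.9 and 22.6 CPM in the levodopa libraries, against 28.1, 26.4 and 27.1 CPM in the MPTP libraries, and Gabbr2, the GABA-B receptor subunit that couples to G proteins, had 212, 252 and 254 CPM in the levodopa libraries, against 314, 389 and 295 CPM in the MPTP libraries. For Gabbr2 control library 1, at 229 CPM, lay inside the levodopa range. The log2 fold changes were -0.35, -0.49 and -0.48, and the unadjusted p-values 0.00518, 0.00635 and 0.00962.

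Hsd17b7, an enzyme of cholesterol synthesis, had 20.7, 17.1 and 19.5 CPM in the levodopa libraries, against 25.3, 24.0 and 23.7 CPM in the MPTP libraries. Dhx32, a putative RNA helicase, had 19.2, 22.8 and 24.3 CPM in the levodopa libraries, against 27.3, 31.6 and 27.8 CPM in the MPTP libraries, and Tom1l1, an adaptor of endosomal sorting, had 19.7, 16.8 and 18.8 CPM in the levodopa libraries, against 21.9, 23.3 and 22.5 CPM in the MPTP libraries. Their log2 fold changes were -0.35, -0.39 and -0.29. In the other 9 libraries Hsd17b7 ranged from 16.8 to 23.2 CPM and Tom1l1 from 16.0 to 21.5 CPM. For both genes levodopa thus lay inside that range and MPTP above it. Dhx32 ranged from 25.3 to 32.9 CPM there, so for this gene levodopa lay below the range. Larger ratios came from genes of low level. Wnt9b, a secreted signalling protein, had 1.36, 1.59 and 3.28 CPM in the levodopa libraries, against 5.37, 8.13 and 5.04 CPM in the MPTP libraries, and Gckr, a regulator of glucokinase, had 0.587, 0.708 and 0.886 CPM in the levodopa libraries, against 1.81, 2.78 and 1.07 CPM in the MPTP libraries. Xlr3a and Xlr3c lie on the X chromosome. Xlr3a had 3.24, 1.59 and 3.07 CPM in the levodopa libraries, against 5.15, 6.49 and 5.29 CPM in the MPTP libraries. Xlr3c had 0.572, 0.258 and 0.973 CPM in the levodopa libraries, against 2.21, 2.23 and 1.68 CPM in the MPTP libraries. The pseudogene Rpl9-ps6 had 0.909, 0.467 and 1.09 CPM in the levodopa libraries, against 1.83, 1.74 and 2.94 CPM in the MPTP libraries. In the other 9 libraries Xlr3a ranged from 1.74 to 4.92 CPM and Xlr3c from 0.388 to 1.68 CPM, and levodopa 1 and 3 lay inside both ranges. The Xlr3 genes are near-identical copies of one another and the pseudogene resembles its parent gene, so their reads could be split between copies. None of the 12 genes higher and 12 lower passed the adjustment.

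**Figure D5:**
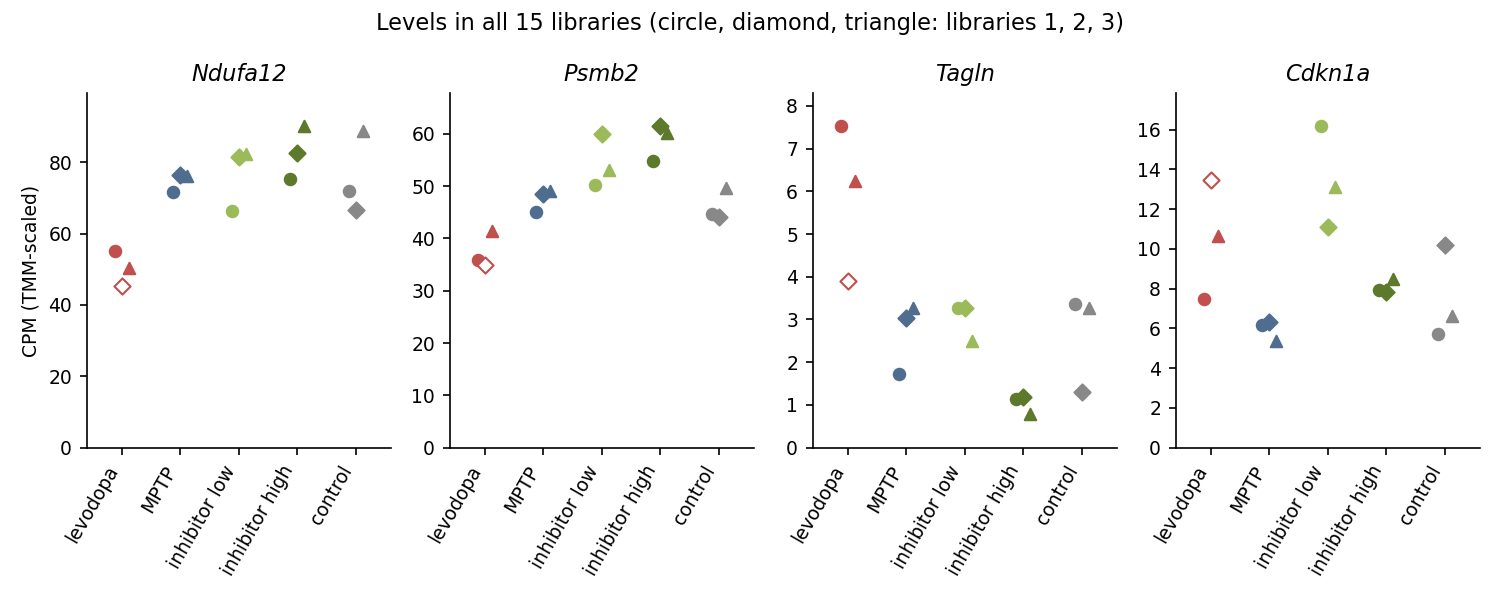
Level of 4 genes in all 15 libraries of the series, in TMM-scaled CPM, with 1 point per library. The levodopa libraries lie below every other library for Ndufa12 and Psmb2 and above every other library for Tagln, while for Cdkn1a control library 2 and the inhibitor libraries of both doses lie inside or above their range.

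Read against all 12 other libraries, 45 genes (0.206%) lay above and 106 (0.486%) below in levodopa, counts of the same order as for MPTP, with 104 (0.477%) above and 116 (0.532%) below. Among named genes of at least 1 CPM there were 28 above and 52 below. Those above included Pglyrp1, a peptidoglycan recognition protein, with 3.65, 3.67 and 3.73 CPM in the levodopa libraries against 0.734 to 2.87 CPM in the other 12. The Notch ligand Dll4, which is typical of endothelial tip cells and arteries, had 3.27, 5.41 and 2.99 CPM against 1.12 to 2.82 CPM. Taf9, a subunit of the general transcription factor TFIID, was among those below, with 33.5, 35.9 and 36.1 CPM against 40.7 to 65.5 CPM. Dynlrb1, a light chain of dynein, had 74.2, 66.6 and 74.7 CPM against 84.2 to 142.7 CPM. Pglyrp1, Dll4, Taf9 and Dynlrb1 were chosen after their values were seen, and the comparison with 12 libraries mixes groups of other treatments.

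The 2 genes that DESeq2 called sit at low counts. Gm14303, a pseudogene on chromosome 2, had 67, 32 and 70 reads in the levodopa libraries and 175, 179 and 250 reads in the MPTP libraries, and 112 to 344 reads in the other 9. Every levodopa library was lower, with a DESeq2 log2 fold change of -1.82 and an adjusted p of 0.00189. Gm11457, a noncoding gene on chromosome 2, had 19, 34 and 29 reads in levodopa and no read in any MPTP library, with a DESeq2 adjusted p of 0.00321. In the other 9 libraries it ranged from 0 to 30 reads, and 1 of the 9 also had no read. edgeR called neither.

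Leaving out 1 library at a time changed which few genes were called. Without levodopa 3 edgeR called 1 gene, LOC115486872, which had 0, 0 and 94 reads in the levodopa libraries and 130, 116 and 90 in the MPTP libraries. Levodopa 3 thus matched MPTP and the other 2 had no read, while the remaining 9 libraries held 81 to 171. DESeq2 called 9 genes without levodopa 1, 0 without levodopa 2, 17 without levodopa 3, and 3, 1 and 0 without MPTP 1, 2 and 3. The 17 included genes of hypothalamic neurons, such as Tac2, the neurokinin B precursor, with 0.469, 0.145 and 16.5 CPM in the levodopa libraries, against 17.4, 22.5 and 5.32 CPM in the MPTP libraries, and Bsx, a homeobox factor, with 0.0293, 0 and 3.15 CPM in the levodopa libraries, against 3.00, 1.77 and 0.401 CPM in the MPTP libraries. Levodopa 3 was level with the MPTP libraries for both. The 9 genes called without levodopa 1 included Mmp14, a membrane metalloprotease, with 43.3, 17.5 and 19.8 CPM in the levodopa libraries, against 28.4, 28.8 and 23.7 CPM in the MPTP libraries, where the library left out was the highest of the 6, and Itpka, an inositol kinase, with 2.65, 40.8 and 12.4 CPM in the levodopa libraries, against 2.66, 3.47 and 2.57 CPM in the MPTP libraries.

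A repeat of ribosomal RNA sequence is given with no test, since it was chosen after its values were seen. The repeat Rn18s-rs5 had 790.2, 989 and 2186 CPM in the levodopa libraries, against 418, 650.2 and 484 CPM in the MPTP libraries, so that each levodopa library held more. The other 9 libraries ranged from 418 to 1721 CPM, and levodopa 1 and 2 lay inside that range. The mitochondrial ribosomal RNA mt-Rnr2 overlapped, with 4880, 2538 and 5196 CPM in the levodopa libraries, against 4536, 4672 and 3771 CPM in the MPTP libraries. The repeat is pseudogene sequence of ribosomal RNA, which a messenger RNA preparation removes for the most part, and its part in the values above was not tested.

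Without levodopa 2, the comparison of 2 levodopa with 3 MPTP libraries again called 0 of 22335 genes (0%) in edgeR and 0 of 22189 (0%) in DESeq2. At an unadjusted p under 0.05 there were 286 genes (1.28%), of which 137 were higher (0.613%) and 149 lower (0.667%), fewer than the 645 found with it. Over the 21821 genes tested with all 3 levodopa libraries, the 2 remaining ones lay above MPTP for 1957 (8.97%) and below for 1801 (8.25%), as smaller groups separate more often. The list medians lay nearer to 0 for cerebellum, homeostatic microglia, dopamine neuron identity, and thalamus and midbrain, and moved up for the leptomeninges, by the values given above.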

How the data were processed

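Brain messenger RNA was measured in 15 libraries, of which the 3 levodopa and 3 MPTP libraries were compared. The deposited files hold whole-number read counts per gene symbol, 45777 symbols in each, and no symbol row without a gene name. Per the submitters' processing notes, the tools were HISAT2 2.1.0, StringTie 2.1.3b, Trimmomatic and bcl2fastq 2.20.0, and the build was GRCm38 (mm10). The annotation, the strand setting and the handling of reads shared by several genes are stated in no source used here, so overlapping genes and near-identical copies are uncertain.

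Groups came from the sample titles. Counts were tested with edgeR 4.0.16 in R 4.3.3: TMM scaling, genes kept by filterByExpr, a quasi-likelihood fit over the 15 libraries together, tests of either direction and Benjamini-Hochberg adjustment at 0.05. Standard errors are the log2 fold change over the square root of F, and 95% intervals use the degrees of freedom of the fit. A pseudocount of 0.5 was added to CPM for library differences and list levels. DESeq2 1.42.0, other scalings and filters, and fits without single libraries were the alternatives, and the fit was checked on simulated counts.

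The text names key genes of 45 lists, the 12 genes of smallest unadjusted p in each direction among named genes of at least 1 CPM without overlap, members of lists that separated, and genes called with any library left out. Some genes that meet these rules are not reported here. The members and lists were chosen with earlier results of these data known. No pair of libraries within a group agreed within sampling noise. Gene coordinates and promoters are from RefSeq, GRCm38.p6. Intervals and the floor of 3 reads cover counting error or the spread between libraries only.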

Additional observations from a re-analysis of the deposited data

How the results depend on the processing

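The count of called genes was 0 under RLE and upper-quartile scaling, without a filter, with a filter of 5 CPM in 3 libraries, in a fit of the 6 libraries alone and without levodopa 2 and control 2. DESeq2 called 2 genes. The fits that left out 1 library gave 0 to 1 in edgeR, with the 1 call made without levodopa 3. The labels do not say what a replicate number stands for. Same-numbered libraries had correlations of deviations from their group means of -0.043, 0.129 and -0.438. These cannot decide whether the numbers pair the libraries, since the libraries also differed in regional genes. With a replicate block in an edgeR fit of the 6 libraries 1 gene was called, Fat2, at an adjusted p of 0.0123.

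Of 123 named genes 97 had a log2 fold change that reversed its sign in no alternative, and 24 had one that did. The other 2 had 0.00 as reported and values on both sides of 0, from -0.07 to 0.07 for Slc3a2 and from -0.52 to 0.22 for Mmp14. Many of the 123 genes were named because their groups did not overlap. Leaving out 1 library can hardly reverse the sign of such a gene, so the count of 97 does not measure how firm the differences are. Without levodopa 2 and control 2 the log2 fold change reversed to 0.14 for Ddc, 0.28 for Slc18a2, -0.02 for Slc7a5, 0.02 for Ahcy, 0.10 for Pdyn, 0.17 for Tac1, 0.09 for Oprk1, 0.03 for Pdgfrb, -0.07 for Snap25 and -0.21 for Aqp4. Upper-quartile scaling gave -0.01 for Aqp4, the fit of 6 libraries alone 0.01 for Nr1d1, and the replicate block -0.17 for Gch1, -0.19 for Drd1, -0.69 for Slc6a4 and -0.16 for Fkbp5. Leaving out 1 library gave ranges across 0 of -1.05 to 0.14 for Ddc, -0.70 to 0.61 for Gch1, -1.10 to 0.27 for Slc18a2, -0.74 to 0.23 for Nr4a2, -0.21 to 0.21 for Aldh1a1, -0.74 to 0.99 for Drd1, -0.02 to 0.17 for Slc7a5, -0.17 to 0.02 for Ahcy, -0.04 to 0.28 for Pdxk, -2.50 to 0.25 for Pdyn, -0.70 to 0.17 for Tac1, -0.19 to 0.10 for Egr1, -0.07 to 0.02 for Park7, -0.26 to 0.36 for Gfap, -0.23 to 0.25 for Aqp4, -0.16 to 0.32 for Rgs5, -0.15 to 0.09 for Pdgfrb, -2.23 to 4.78 for Tph2, -2.21 to 5.11 for Slc6a4, -0.62 to 0.37 for Fkbp5, -0.11 to 0.04 for Ndufs1, -0.45 to 0.21 for Nr1d1, -1.17 to 0.09 for Oprk1 and -0.07 to 0.46 for Snap25. The cause of these reversals was not tested. The median log2 fold change of the dopamine synthesis list ran from -0.70 to 0.14 when 1 library was left out and was -0.68 with the block. For genes of at least 1 CPM the unadjusted 95% interval reached a median of 0.45 on the log2 scale to either side, and a larger difference such as -0.57 for Ndufa12 did not pass the adjustment.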

Other observations

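Neuronal lists that the report does not describe held no called gene. Of 11 general neuronal genes 1 separated the groups, Tubb3, a neuronal tubulin, with 327, 214 and 337 CPM in the levodopa libraries, against 373, 346 and 342 CPM in the MPTP libraries, and the median log2 fold change was -0.02. Of 10 GABA neuron genes 1 was lower in every levodopa library, the peptide gene Cck, with 19.6, 28.1 and 41.5 CPM in the levodopa libraries, against 46.3, 54.4 and 42.4 CPM in the MPTP libraries, while Gad1, which makes GABA, had 533, 572 and 389 CPM in the levodopa libraries, against 322, 391 and 522 CPM in the MPTP libraries and overlapped. Levodopa 2 was the lowest library for Tubb3 and levodopa 1 for Cck. The 12 glutamate receptor genes and the 13 postsynaptic scaffold genes had 0 genes without overlap and medians of 0.16 and 0.11. Cortical and hippocampal genes had 1 of 16 below MPTP, Rorb, with 46.2, 19.9 and 47.8 CPM in the levodopa libraries, against 48.9, 61.8 and 55.3 CPM in the MPTP libraries. The 8 acetylcholine neuron genes, 9 serotonin neuron genes and 4 tested hindbrain genes had 0 without overlap, and the noradrenaline list had Slc6a2 alone.

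Glial precursors, choroid plexus and blood gave no separation either. The 10 oligodendrocyte precursor genes had 0 without overlap and a median of -0.22. The 16 choroid plexus genes had 0 and a median of -0.02, and the 5 haemoglobin genes 0 and -0.12. Of 32 ribosomal protein genes 2 were lower in every levodopa library, among them Rps16, where levodopa 2 was the lowest, and the median was -0.12. The 12 heat shock genes had Hspb1, a small chaperone, above MPTP with 4.55, 3.54 and 4.34 CPM in the levodopa libraries, against 3.21, 2.99 and 3.09 CPM in the MPTP libraries (unadjusted p = 0.0411, edgeR) and Hsp90aa1 below it with 1166, 940.4 and 1111 CPM in the levodopa libraries, against 1205, 1174 and 1280 CPM in the MPTP libraries. Among 13 genes of hypoxia and glycolysis, Vegfa, the vascular growth factor, was above MPTP with 104, 122 and 86.6 CPM in the levodopa libraries, against 85.9, 86.4 and 84.8 CPM in the MPTP libraries, levodopa 2 being the highest, and the glycolytic enzyme Eno1 below it with 548, 532 and 548 CPM in the levodopa libraries, against 568, 586 and 563 CPM in the MPTP libraries. Of 17 circadian genes 2 were above MPTP without overlap, among them Cry2, where 4.93% of all genes were. The 14 neurotrophic factor genes had 0 without overlap and a median of -0.09.

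Erdr1, a repeat-rich gene at the end of the X chromosome, was all or none in these libraries, with 1245, 0 and 0 reads in the levodopa libraries and 811, 1103 and 0 reads in the MPTP libraries. It was present in 1 of 3 levodopa and 2 of 3 MPTP libraries and in each of the other 9, which held 544 to 7731 reads. Gm44502 had 0, 989 and 88 reads in the levodopa libraries and none in the MPTP libraries. Both are among the DESeq2 calls of the fits that left out 1 library. Erdr1 was called without levodopa 1 (DESeq2 adjusted p = 0.00201) and Gm44502 without levodopa 3 (DESeq2 adjusted p = 0.000741). Neither was called with all 6 libraries, and both genes were chosen after their values were seen.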
